A study of Mus musculus with 10 samples.

Results

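The calpain system of the mouse gastrocnemius was followed through 8 genes, chosen by name: Capn1, Capn2, Capn3, Capn5, Capn6, Capn7, Capns1 and Cast. All 8 were found by Ensembl identifier among the 54232 genes of the deposited table, and all 8 were tested. RNA had been sequenced from tissue labelled as striated muscle in 5 homozygous desmin knock-out mice (Des -/-) and 5 wild-type mice (Des wt/wt), which carry the same strain name, B6J.129Sv-Destm1Cba/Cscl. The study's methods name the gastrocnemius as its source, while other passages of the study name gastrocnemius and plantaris together, and which of these holds cannot be told from the labels. The mice were 3 months old. The methods call the wild-type mice littermates and do not describe the knock-out as restricted to a cell type. Pooling of RNA is mentioned in the methods, whereas the columns of the table are named for single mice and were treated as single animals. Values are rlog values, a log2 measure of expression in which library size is accounted for and weakly measured genes are pulled towards their average, so that differences can come out smaller than log2 fold changes of counts. Differences are given below as knock-out minus wild-type on this scale.

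Calpains are calcium-dependent cysteine proteases that cut their substrates at a limited number of sites instead of degrading them. The conventional calpains are heterodimers: Capn1 and Capn2 encode the catalytic subunits of µ-calpain and m-calpain, and Capns1 encodes the small regulatory subunit that both share. Calpastatin, the product of Cast, is their specific endogenous inhibitor. Capn3 encodes the muscle calpain, which is anchored to titin in the sarcomere and whose loss in humans causes a limb-girdle muscular dystrophy. In muscle, desmin itself is among the known calpain substrates, together with titin, talin, spectrin, dysferlin and the junctophilins.

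Desmin knock-out muscle contained less Capn3 and more Cast transcript than wild-type muscle. For both genes the 5 knock-out values lay entirely outside the range of the 5 wild-type values. The difference was -0.57 for Capn3 (standard error 0.11) and 0.42 for Cast (standard error 0.11). The other 6 genes did not pass in the main fit, which took the deposited values of all 10 mice without weights or covariates. Capns1 passed without wild-type mouse 3, which had its highest value, and in no other fit with 1 mouse left out. Leaving out the highest wild-type value raises the difference in any case. With all 10 mice, Capns1 passed when samples were weighted (adjusted p = 0.00271) or a covariate from Y-linked genes was added (adjusted p = 0.0334, limma). Capn2 passed with weighted samples only (adjusted p = 0.0219, limma). Of the 14289 tested genes, 13.7% passed an adjusted p of 0.05 (limma, with Benjamini-Hochberg adjustment across them), 7.7% being higher and 5.99% lower, so that 1 gene higher and 1 lower out of 8 is not far from the share among all genes. The median difference of the 8 genes was 0.028, beside -0.0029 for all tested genes.

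The samples carried the Des level of their labels, with rlog values from 11.76 to 11.89 in knock-out and from 16.10 to 17.74 in wild-type mice. The 8 markers of skeletal muscle were all expressed. Their summed level was 21.76 to 21.94 in knock-out and 21.95 to 23.01 in wild-type mice, so that the genotypes did not overlap. The 23.01 belonged to wild-type mouse 3, and the next wild-type mouse had 22.34. Wild-type mouse 3 stood apart from its group. Pearson's r between its tested genes and those of its group averaged 0.982, against 0.989 to 0.991 for the other 4 mice, and 46.6% of its summed linear expression fell on its top 20 genes, against 38.2% to 39.5%. Knock-out mice were more alike, with averages of r from 0.9955 to 0.9969 within their group, above every wild-type mouse. All 8 calpain system genes were higher in this mouse, by between 0.14 for Capn7 and 0.72 for Capns1 compared with the mean of the other wild-type mice. For the calpain system and its partners, and for the marker lists, values without wild-type mouse 3 are therefore given where it moved a result.

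**Figure D1:**
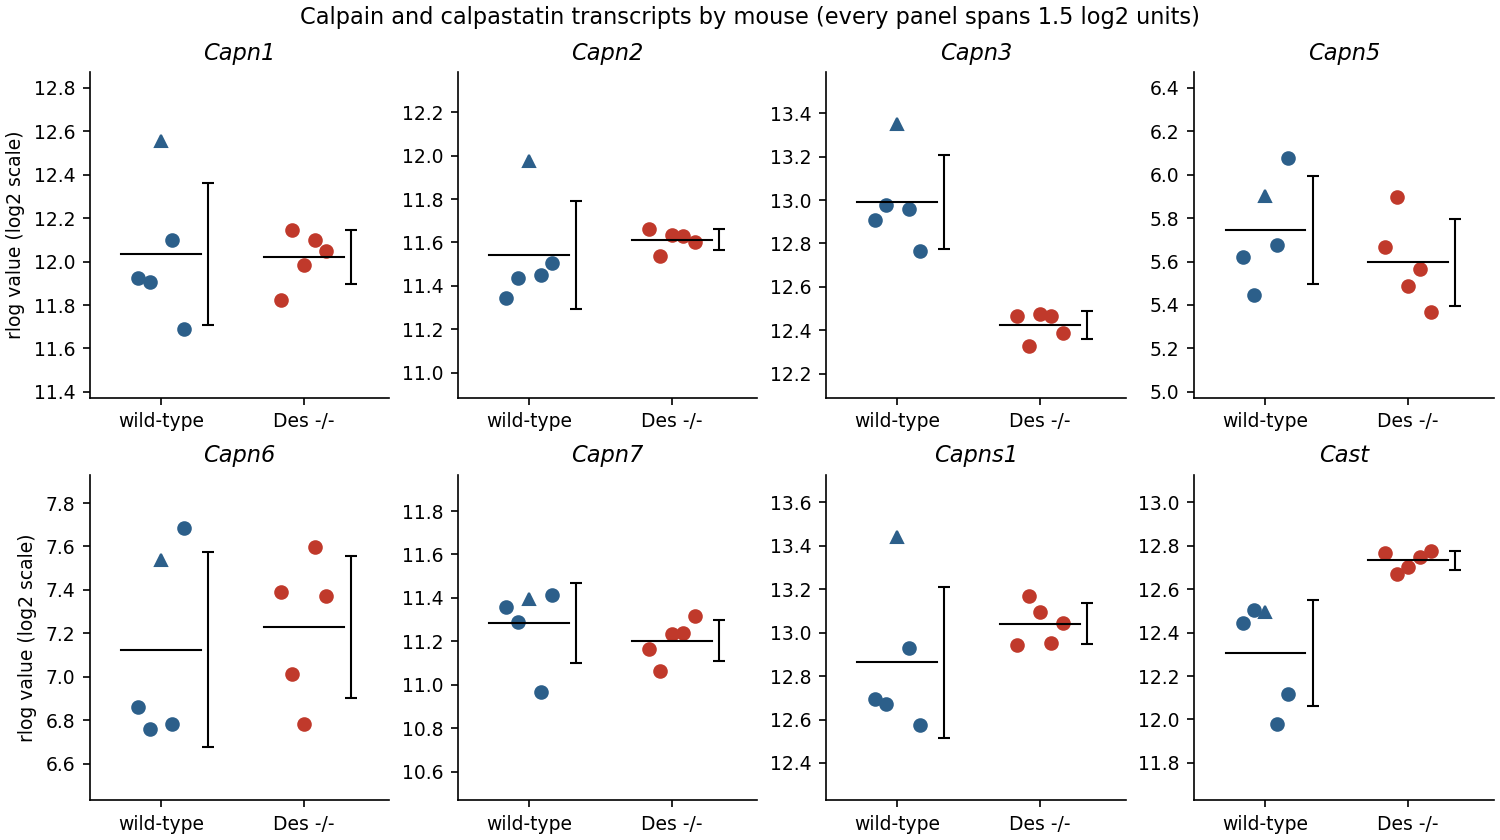
Rlog values (log2 scale, vertical axis, 1.5 log2 units in every panel) of the 8 calpain and calpastatin genes in 5 wild-type (blue) and 5 desmin knock-out mice (red). Each symbol is 1 mouse, the triangle is wild-type mouse 3, horizontal lines are means and bars are SD. The genotypes do not overlap for Capn3 and Cast, and in the panels of Capn2 and Capns1 only the triangle lies above knock-out values that exceed the other wild-type mice.

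Since Capn3 and Cast were the genes that changed, the bases before their annotated starts are shown, taken from RefSeq on GRCm38.p6, where 7 of the 8 genes had at least 1 such window. Each sequence holds the 250 bases upstream of a start, written 5′ to 3′ on the strand of the gene. Capitals mark matches, searched on both strands, to the E-box CANNTG of basic helix-loop-helix factors, of which CAGCTG is the form preferred by myogenic factors, to the MEF2 motif and to the CArG box bound by SRF. The first Capn3 start, close to that of the GENCODE transcripts with the longest reading frame (821 codons), is at position 120463593 of chromosome 2, and the second, near which transcripts of up to 785 codons begin, is at 120476909. For Cast, on the reverse strand of chromosome 13, the window before position 74807960 is shown. It was picked because it was the only one of the 4 Cast windows with a match. The start close to that of the Cast transcript with the longest reading frame (788 codons) is another one, at 74808760.
Capn3, first start, chr2:120463343-120463592, forward strand: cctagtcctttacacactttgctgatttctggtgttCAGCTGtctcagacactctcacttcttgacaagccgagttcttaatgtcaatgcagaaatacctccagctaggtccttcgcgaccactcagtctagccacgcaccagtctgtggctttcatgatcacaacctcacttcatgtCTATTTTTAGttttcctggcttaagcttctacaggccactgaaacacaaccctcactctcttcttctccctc
Capn3, second start, chr2:120476659-120476908, forward strand: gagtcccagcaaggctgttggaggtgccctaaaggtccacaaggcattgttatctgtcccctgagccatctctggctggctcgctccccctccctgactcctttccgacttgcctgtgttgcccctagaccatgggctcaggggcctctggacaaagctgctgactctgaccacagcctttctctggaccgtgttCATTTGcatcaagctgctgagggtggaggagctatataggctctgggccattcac
Cast, chr13:74807961-74808210, reverse strand: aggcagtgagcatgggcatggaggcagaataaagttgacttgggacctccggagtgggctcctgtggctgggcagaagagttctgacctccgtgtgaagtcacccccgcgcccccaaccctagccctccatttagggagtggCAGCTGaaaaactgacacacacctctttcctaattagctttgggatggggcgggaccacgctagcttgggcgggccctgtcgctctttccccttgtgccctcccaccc
The first Capn3 window held a CAGCTG beginning at position -214 and a MEF2 motif beginning at position -72, counted back from the start. The second held 1 E-box at position -55 and no MEF2 motif. The Cast window held a CAGCTG at position -108, and the windows before the other 3 Cast starts held no match to any of these motifs. Among 32851 RefSeq windows of the same length, 66.2% had a CANNTG, 13% a CAGCTG, 2.92% a MEF2 motif and 1.47% a CArG box. Of the 12 windows of the calpain system, only the first Capn3 window and the Cast window shown had a CAGCTG. The first Capn3 window was the only one with a MEF2 motif, and none had a CArG box. These matches are descriptions of letters, and no binding was measured. Rlog values are per gene, so that transcripts from different starts were not separated.

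Compared per length, as the rlog value minus log2 of the exonic length in kb, the tested calpain genes spread over a wide range. Capns1, with the shared small subunit, had the highest level, 11.64 averaged over the 10 mice, above 96.8% of tested genes. Capn3 with 10.38 and Capn1 with 10.29 followed, and the ranges of these neighbours overlapped in both genotypes. Next came Cast, Capn7 (8.95) and Capn2 (8.91), of which the latter overlapped in both genotypes. The place of Cast depended on the genotype. In knock-out muscle its level of 9.21 (9.15 to 9.26) lay above all values of Capn7, which reached 9.02, and of Capn2, whose highest value was lower still. In wild-type muscle its mean of 8.79 was below those of Capn7 (8.99) and Capn2 (8.88), and the ranges overlapped. Capn6 (4.22) and Capn5 (3.22) lay far below, with levels that exceeded those of 22.4% and 12.8% of tested genes. The order of Capn3 and Capn1 was not the same in the genotypes. In wild-type muscle Capn3 had 10.66 and Capn1 had 10.29 per length, whereas in desmin knock-out muscle Capn3 had 10.10 and Capn1 had 10.28. The exonic length joins all annotated exons of a gene, which for Cast gives 11470 bases over many alternative transcripts and lowers its level per length.

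**Figure D2:**
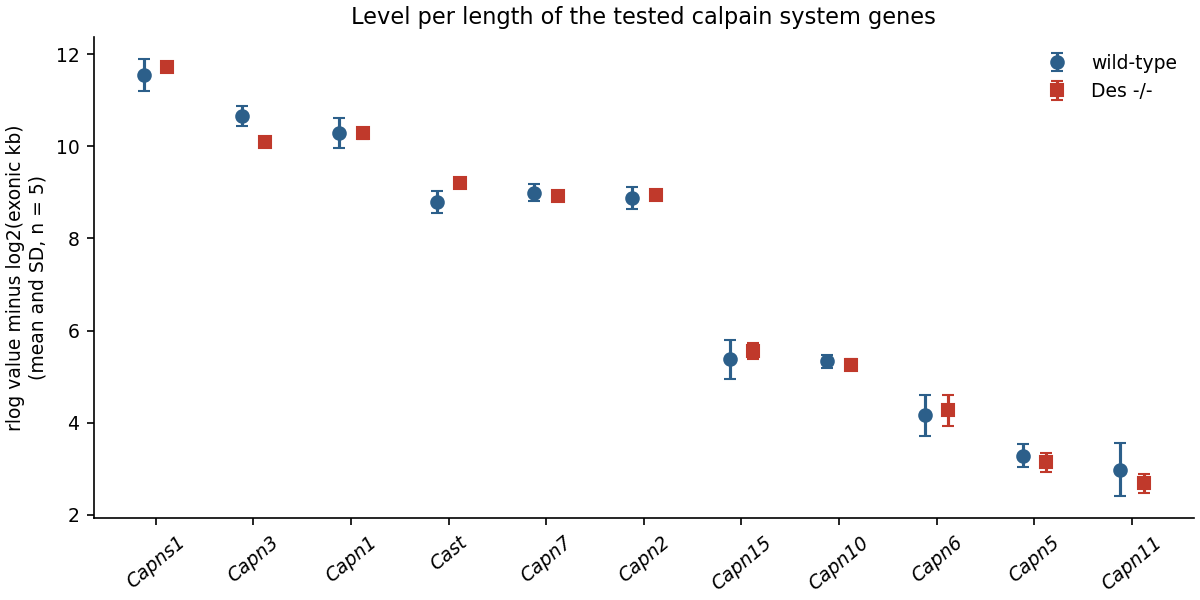
Level per length (rlog value minus log2 of the exonic kb, vertical axis, mean and SD of 5 mice) of the 11 tested genes of the calpain system, ordered by the mean over all mice, in wild-type (blue circles) and desmin knock-out muscle (red squares). Capns1, Capn3 and Capn1 lie at the top with means above 10, and Capn6, Capn5 and Capn11 at the bottom with means below 4.3.

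Capn3 (ENSMUSG00000079110) spans positions 120456019 to 120504913 of chromosome 2 (GRCm38, forward strand). Its rlog values were 12.47, 12.33, 12.47, 12.47 and 12.39 in desmin knock-out mice 1 to 5. In wild-type mice 1 to 5 they were 12.91, 12.98, 13.35, 12.96 and 12.77. Every knock-out mouse was below every wild-type mouse, and the knock-out mice lay close together with an SD of 0.06 over 5 animals, compared with 0.22 over the 5 controls. Most of the wider spread in controls came from wild-type mouse 3, without which the SD of the 4 remaining controls was 0.10. The difference of -0.57 (standard error 0.11, 95% interval from -0.80 to -0.34) had an adjusted p of 0.00278 (limma). The exact two-sided permutation test reached p = 0.00794, which is as low as 5 against 5 mice can give. Genotypes without overlap always give this value, so that it restates the separation and adds no further evidence. Part of the distance came from wild-type mouse 3, which had the highest Capn3 value of all. Without it the difference was -0.48 with an adjusted p of 3.05e-04 (limma). The call held in all 19 alternatives tried, over which the difference lay between -0.62 and -0.48. Non-overlapping genotypes were seen for 14.4% of all tested genes, 7.45% with higher and 6.97% with lower values in knock-out mice. Capn3 shares 386 exonic bases, 7.68% of its exons, with Ganc, a glucosidase gene on the same strand. Ganc, named after its values were seen, was also lower in knock-out muscle, with a difference of -0.41 (adjusted p = 0.013, limma). Reads in the shared bases could belong to either gene.

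Cast (ENSMUSG00000021585), on the reverse strand of chromosome 13 from 74692368 to 74808810, was the member that rose. Knock-out mice 1 to 5 had rlog values of 12.77, 12.67, 12.70, 12.75 and 12.78. Wild-type mice 1 to 5 had 12.45, 12.50, 12.49, 11.98 and 12.12. The lowest knock-out value was above the highest wild-type value, by less than the distance between the upper 3 wild-type mice and the lower 2. The spread was much narrower in knock-out (SD 0.05) than in wild-type muscle (SD 0.24, 5 mice each). The difference of 0.42 (standard error 0.11, 95% interval from 0.18 to 0.67) had an adjusted p of 0.0219 (limma). The exact permutation test gave its smallest possible p of 0.00794, which again only restates the lack of overlap. Wild-type mouse 3 was not extreme for Cast, and without it the difference was 0.47 (adjusted p = 0.00574, limma). Without wild-type mouse 4, which had the lowest value, the difference was 0.34 (adjusted p = 0.0372, limma), the smallest with 1 mouse left out. The call was less firm than that of Capn3. The difference stayed positive, but the adjusted p exceeded 0.05 in 7 of 19 alternatives. Without knock-out mouse 1, 4 or 5 it was 0.0546, 0.0549 and 0.0591, without wild-type mouse 5 it was 0.0523, and with median centring of the samples 0.0512. After correction of every sample for its dependence on GC content and gene length, there remained a difference of 0.29 (adjusted p = 0.163, limma). Cast shares 834 exonic bases with Erap1, an aminopeptidase gene on the opposite strand, which had a difference of 0.0063 (adjusted p = 0.979, limma).

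The catalytic subunit genes of the conventional calpains gave no call in the main fit. Capn1 (ENSMUSG00000024942, chromosome 19, 5988545 to 6015897) had values of 11.82, 12.15, 11.98, 12.10 and 12.05 in knock-out mice 1 to 5 and of 11.92, 11.91, 12.56, 12.10 and 11.69 in wild-type mice 1 to 5. The knock-out values lay within the wild-type range. Its difference was -0.014 (95% interval from -0.32 to 0.29, adjusted p = 0.96, limma), and without wild-type mouse 3, which was highest, it was 0.12 (adjusted p = 0.437). No direction can be given for this gene.

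Capn2 (ENSMUSG00000026509, chromosome 1, 182467260 to 182517608) had 11.66, 11.54, 11.63, 11.63 and 11.60 in knock-out mice 1 to 5, against 11.34, 11.44, 11.97, 11.45 and 11.51 in wild-type mice 1 to 5. All knock-out mice were above wild-type mice 1, 2, 4 and 5 and below wild-type mouse 3. The difference was 0.071 (95% interval from -0.17 to 0.31, adjusted p = 0.719, limma) with this mouse and 0.18 (standard error 0.061, adjusted p = 0.064, limma) without it.

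Capns1 (ENSMUSG00000001794, chromosome 7, 30186936 to 30198811) showed the same arrangement. Knock-out mice 1 to 5 had 12.94, 13.17, 13.10, 12.95 and 13.05, and wild-type mice 1 to 5 had 12.70, 12.67, 13.44, 12.93 and 12.58. Here too only wild-type mouse 3 exceeded the knock-out mice, while wild-type mouse 4 came close to the lowest of them. The difference was 0.18 (95% interval from -0.13 to 0.49, adjusted p = 0.455, limma). Without wild-type mouse 3 it was 0.32 (standard error 0.082) and passed, with an adjusted p of 0.0152 (limma). In that fit 17.4% of all tested genes passed, 9.34% being higher and 8.11% lower, and 3 of the 8 calpain system genes did so: Capn3, Cast and Capns1. Capn2, Capns1, Capn3 and Cast, 4 of the 8 genes, then had no overlap between the genotypes, as had 17.8% of all tested genes.

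**Figure D3:**
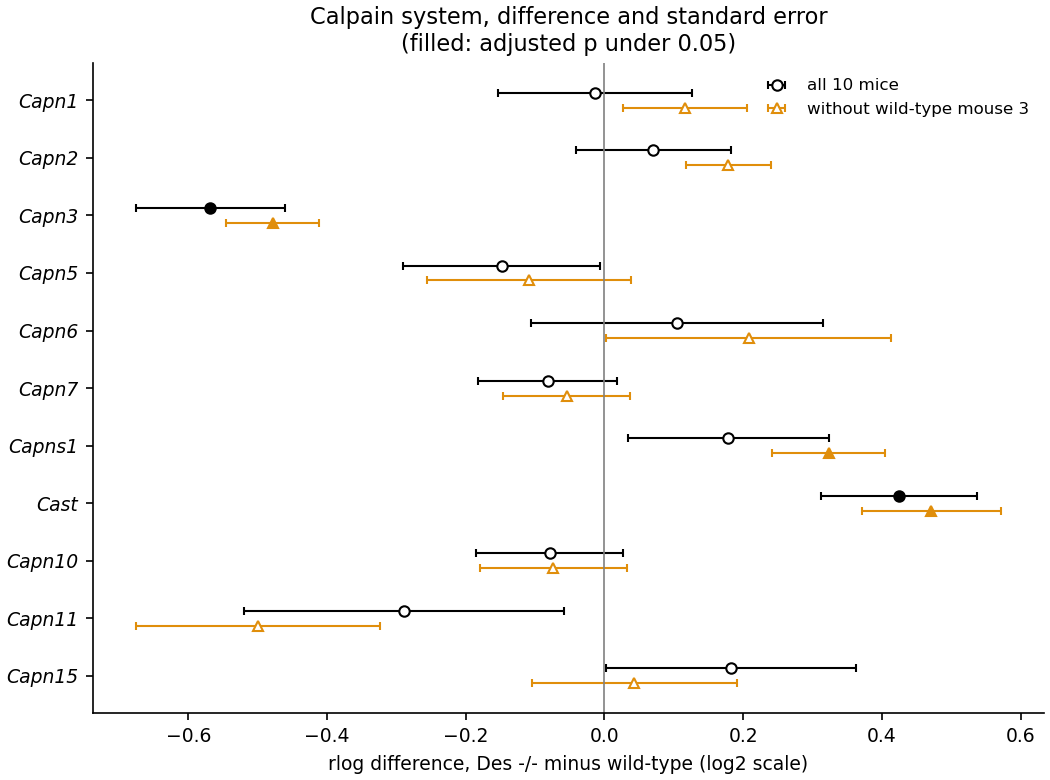
Rlog difference, desmin knock-out minus wild-type (log2 scale, horizontal axis), with its standard error for the 8 calpain and calpastatin genes and the 3 further calpain genes that were tested, with all 10 mice (black circles) and without wild-type mouse 3 (orange triangles). Filled symbols have an adjusted p under 0.05, which holds for Capn3 and Cast in both fits and for Capns1 without wild-type mouse 3.

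Differences between 2 transcripts within the same mouse do not depend on how samples were scaled against each other, and they are given as a description without a test. Cast minus Capn3, the inhibitor of the conventional calpains against the muscle calpain, was between 0.23 and 0.39 in knock-out mice and between -0.98 and -0.46 in wild-type mice. The genotype means of this measure were 0.99 apart. In every knock-out mouse Cast was above, and Capn3 below, all wild-type mice. The separation of this measure therefore follows from those values and is no further result. Capn3 minus Capn2 averaged 0.81 ± 0.03 (SD) in the 5 knock-out mice against 1.45 ± 0.13 (SD) in the 5 controls. Wild-type mouse 3, with 1.38, lay inside the range of its group here, from 1.26 to 1.56. Cast minus Capn2 was 1.12 ± 0.04 (SD, n = 5) in knock-out mice. In wild-type mice it split into 1.10 and 1.07 in mice 1 and 2 and values between 0.52 and 0.61 in mice 3, 4 and 5, so that its knock-out and wild-type ranges overlapped. Capns1 minus Capn1 reached from 0.85 to 1.12 in knock-out and from 0.77 to 0.89 in wild-type mice, and the ranges overlapped by 1 knock-out mouse. A difference of this kind shows unequal change of the 2 transcripts, and not which of them changed.

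**Figure D4:**
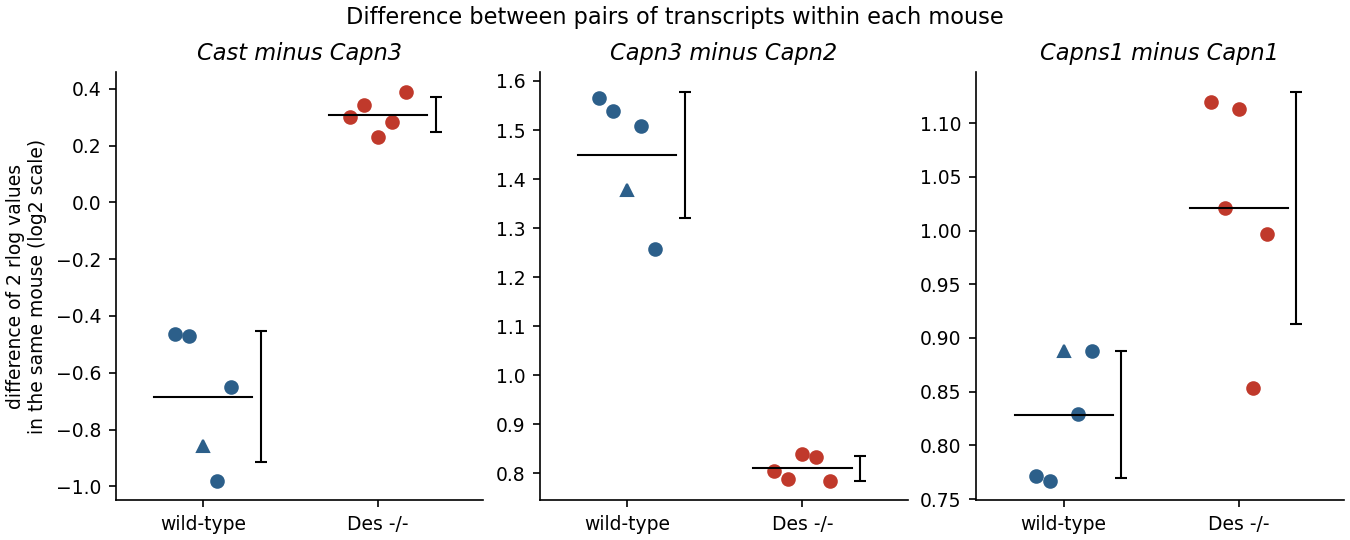
Difference between the rlog values of 2 genes in the same mouse (log2 scale, vertical axis, scaled separately for each panel and not starting at 0) for Cast minus Capn3, Capn3 minus Capn2 and Capns1 minus Capn1. Symbols are mice, the triangle is wild-type mouse 3, lines are means and bars are SD (n = 5 per genotype). The first 2 panels show no overlap of the genotypes, which in the first follows from the separate values of Cast and Capn3. In the third 1 knock-out mouse, with 0.85, lies within the wild-type range.

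The remaining members are non-classical calpains, and none of them passed. Capn7 (ENSMUSG00000021893, chromosome 14, 31336638 to 31371986), a calpain without the calcium-binding domain of the classical forms, was expressed at a level like that of Capn2. Its values were 11.16, 11.06, 11.23, 11.24 and 11.32 in knock-out mice 1 to 5 and 11.36, 11.29, 11.40, 10.97 and 11.41 in wild-type mice 1 to 5. Wild-type mouse 4 was the lowest of all 10, and the other wild-type mice overlapped the knock-out mice. The difference was -0.082 (95% interval from -0.30 to 0.13, adjusted p = 0.633, limma), and -0.16 (adjusted p = 0.216, limma) without wild-type mouse 4.

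Capn5 (ENSMUSG00000035547, chromosome 7, 98121559 to 98178274), which carries a C-terminal C2 domain in place of calcium-binding EF hands, ranged between 5.37 and 5.90 in knock-out mice, and between 5.45 and 6.08 in controls. The difference was -0.15 (95% interval from -0.45 to 0.16, adjusted p = 0.535, limma). Capn6 (ENSMUSG00000067276, chromosome X, 143802231 to 143827414) encodes a calpain without the active-site cysteine that is known from embryonic muscle. It had 7.39, 7.01, 6.78, 7.60 and 7.37 in knock-out mice 1 to 5 and 6.86, 6.76, 7.54, 6.78 and 7.69 in wild-type mice 1 to 5. Both genotypes contained high and low mice, and the SDs of 0.33 (knock-out, 5 mice) and 0.45 (wild-type, 5 mice) were the largest among the 8 genes. The difference of 0.10 had a 95% interval from -0.35 to 0.56 (adjusted p = 0.783, limma). Genes of regenerating fibers, among which embryonic muscle genes count, were in part higher in the same samples: 6 of 10 rose, with Myh3, the embryonic myosin heavy chain, at 2.25 (adjusted p = 5.89e-06, limma), and 1 fell. Myh3 had the largest difference of that list, on which differences ranged from -0.47 to 2.25. Whether Capn6 goes with these genes was not tested.

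Of 8 calpain genes outside the members, 3 reached the limit for testing, and none passed or had an unadjusted p under 0.05 (limma). Capn10, an atypical calpain, had a difference of -0.079 (adjusted p = 0.666), Capn15 one of 0.18 (adjusted p = 0.546) and Capn11, known from testis, one of -0.29 (adjusted p = 0.446, all limma). Capn11 was lower in wild-type mouse 3 than in any other mouse, and without it the difference was -0.50 (adjusted p = 0.0697, limma). Capn8 is listed at 0 in all mice. Capn9, Capn12, Capn13 and Capns2, the second small subunit gene, had means under the limit of log2(10) and were not tested.

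Over the 10 mice, the genes whose pattern was most like that of Capn3 by Pearson's r were Parp1 (r = 0.991), Srpr (r = 0.988) and Mybpc2 (r = 0.987), the last encoding the fast form of myosin-binding protein C. After removal of the genotype means, r was 0.977, 0.941 and 0.944, and without wild-type mouse 3 it was 0.989, 0.979 and 0.977. All 3 were lower in knock-out muscle, with differences of -0.35, -0.75 and -1.05. For Cast the closest patterns were those of Lrrn1 (r = 0.98), Pdia6 (r = 0.976) and Kctd1 (r = 0.966), with differences of 1.01, 0.21 and 0.55, of which that of Pdia6 did not pass (adjusted p = 0.104, limma). Capn1 was closest to A930005H10Rik (r = 0.979) and Capns1 to Smap2 (r = 0.971) and Cyb5r1 (r = 0.971). These are the highest of 14288 values for each member, given as a description, and the points share libraries and genotype.

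Other transcripts moved with the genotype beside Capn3 and Cast. In bulk muscle, fewer cells of a type and less RNA per cell cannot be told apart. The counts below stand beside 7.7% of all tested genes higher and 5.99% lower with all mice, and beside 9.34% and 8.11% without wild-type mouse 3. The markers of skeletal muscle had a median difference of -0.41, with 1 of 8 higher and 2 lower. Without wild-type mouse 3 their median difference was -0.19, with 2 higher and 2 lower. The markers of fast fibers had a median difference of -0.44, with 3 of 10 lower (Mybpc2, Actn3 and Myh4) and 0 higher. Wild-type mouse 3 was above the other controls by a median of 0.86 on this list, and without it the median difference was -0.30, with the same 3 genes lower and Myh1 higher. The summed level of fast fiber markers was 22.04 to 22.27 in knock-out mice and 22.33 to 23.23 in wild-type mice, of which 23.23 was mouse 3 and 22.69 the next. Of 9 markers of slow fibers 3 were higher and 1 lower, and without wild-type mouse 3 it was 4 and 1. Of 8 endothelial markers 5 were lower, and 4 without that mouse, Vwf and Cdh5 among them in both fits. Their summed level was 12.08 to 12.45 in knock-out and 12.45 to 12.81 in wild-type mice, where mouse 3 was again highest and the next had 12.76. Fibroblast markers were higher for 4 of 8, and for 3 without wild-type mouse 3, with a summed level from 13.95 to 14.56 against 13.63 to 14.46. Regenerating fiber markers, of which 6 of 10 were higher and 1 lower, had 7 higher and 1 lower without that mouse. None of 10 macrophage markers and none of 6 Schwann cell markers passed in either fit, and with all mice none had an unadjusted p under 0.05 (limma). Among 6 smooth muscle markers Lmod1 was lower and among 6 adipocyte markers Adig was lower, both with and without wild-type mouse 3. Of 5 erythroid markers 2 were lower, and 3 without that mouse. No marker of these lists was at 0 in all mice. The part of these shifts in the differences of Capn3 and Cast was not tested.

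Calpain substrates and partners were followed as a list of 18 genes, all of them tested. Des aside, which was the targeted gene (difference -4.73), 2 rose and 1 fell at an adjusted p under 0.05. These 3 calls in 17 genes (17.6%) stand beside 13.7% of all tested genes. With Des included, the list had 4 calls in 18 and a median difference of -0.049. Ankrd2, a stretch-responsive ankyrin repeat protein that calpain 3 can cleave and that binds titin, had values from 13.55 to 13.83 in knock-out mice and from 12.34 to 13.27 in wild-type mice. The genotypes did not overlap, with a difference of 0.96 (standard error 0.15, adjusted p = 8.1e-04, limma). Ahnak, a large scaffold protein that is cleaved by calpain 3, had values from 13.73 to 14.02 in knock-out and from 12.44 to 13.43 in wild-type mice, the lowest being wild-type mouse 3. The groups did not overlap, and the difference was 0.72 (standard error 0.17, adjusted p = 0.0116, limma) with and 0.54 (adjusted p = 0.0011, limma) without that mouse. Jph2, a junctophilin that holds the triad membranes together, had values of 14.10, 14.45, 14.55, 14.35 and 14.14 in knock-out mice 1 to 5 and 14.59, 14.54, 14.96, 14.82 and 14.71 in wild-type mice 1 to 5. Knock-out mouse 3 lay just above wild-type mouse 2, and the other knock-out mice were below all wild-type mice. The difference of -0.41 (standard error 0.12, adjusted p = 0.0404, limma) stood close to the threshold, and in 10 of 19 alternatives the adjusted p exceeded it, up to 0.123. It was among others 0.107, 0.0608, 0.0796 and 0.114 without knock-out mouse 1, 2, 4 or 5 and 0.0729 and 0.0615 without wild-type mouse 4 or 5.

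Among partners that did not pass in the main fit, Ryr1, the calcium release channel of the sarcoplasmic reticulum, came nearest. All its knock-out values (15.69 to 16.07) lay below all wild-type values (16.16 to 16.89). Its difference was -0.48 (adjusted p = 0.0551, limma), and -0.35 (adjusted p = 0.0295) without wild-type mouse 3. Flnc, the muscle filamin, had a difference of 0.40 (adjusted p = 0.0602), with 4 of the 5 knock-out values above all wild-type values, and passed without wild-type mouse 1 (0.48, adjusted p = 0.0268) or 2 (0.46, adjusted p = 0.0456, all limma). Jph1, the other junctophilin of skeletal muscle, had -0.19 (adjusted p = 0.445) and passed without wild-type mouse 3, with -0.32 (adjusted p = 0.0423, limma). Ttn, which encodes the anchor of calpain 3, had a difference of -0.13 (adjusted p = 0.681), Dysf, the membrane repair protein dysferlin, one of 0.065 (adjusted p = 0.779), and Cmya5, a large sarcomeric protein known as myospryn, one of -0.29 (adjusted p = 0.28). Simc1, whose product binds calpain 3 and suppresses its activity, had one of -0.061 (adjusted p = 0.78). Of the cytoskeletal substrates of the conventional calpains, Tln1 (talin), Sptan1 (spectrin) and Vim (vimentin) had differences of 0.16, -0.29 and 0.080, none of which passed in the main fit. Sptan1 passed without knock-out mouse 1 (-0.36, adjusted p = 0.0478, limma). The remaining genes Neb, Flna, Ctnnb1 and Nfkbia did not pass either, with differences between -0.23 and 0.37, although Nfkbia, the gene of the NF-κB inhibitor, passed without knock-out mouse 3 (0.51, adjusted p = 0.0407, limma).

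**Figure D5:**
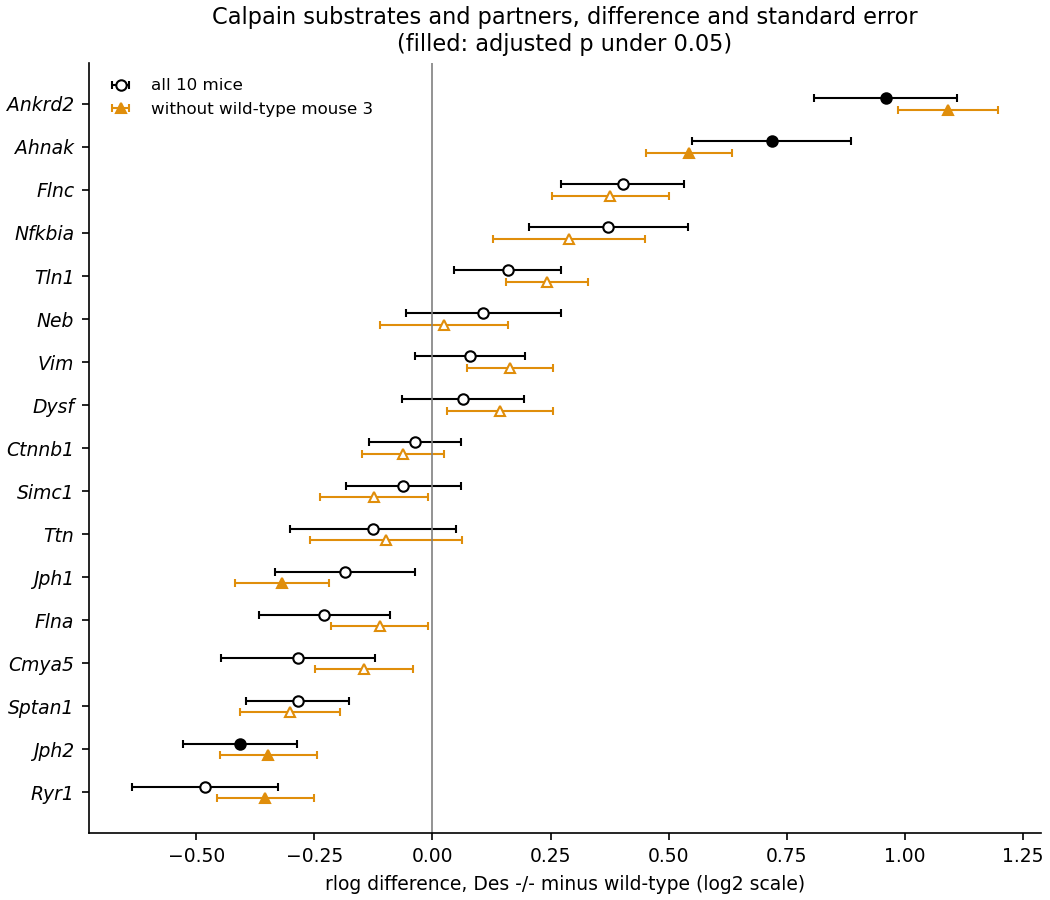
Rlog difference, desmin knock-out minus wild-type (log2 scale, horizontal axis), with its standard error for 17 calpain substrates and partners ordered by size, with all 10 mice (black circles) and without wild-type mouse 3 (orange triangles). Des, the targeted gene, is left out because its difference of -4.73 is off the scale. Filled symbols have an adjusted p under 0.05: Ankrd2, Ahnak and Jph2 in both fits, and Ryr1 and Jph1 without wild-type mouse 3.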

How the data were processed

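Calf muscle RNA-seq (gastrocnemius per the methods, gastrocnemius and plantaris elsewhere in the study) of 10 mice was used, with 5 mice of each genotype. Per the labels, libraries were made with a stranded mRNA kit, and the submitters' processing notes name cutadapt 2.5, STAR 2.5.4a, featureCounts of Subread 1.6.1, DESeq2 and the build GRCm38. Whether reads were counted by strand is not given in the sources used here. The authors deposited rlog values, a log2 measure adjusted for library size, with shrinkage towards the average of each gene. No counts were used, so that sequencing depth and counting error are unknown, and the number of mice limits the precision. Symbols, positions and lengths came from GENCODE M21 (GRCm38), in which 54165 of 54232 identifiers were found.

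The 14289 genes whose mean reached log2(10) entered limma 3.58.1 in R 4.3.3 (lmFit, eBayes with a prior variance following the mean, two-sided, threshold 0.05 after Benjamini-Hochberg adjustment across these genes). No covariate was used. The text names the 8 members, Des, the genes of both calpain lists, for each marker list at most 3 called genes, taken by lowest adjusted p, and the 3 genes closest to a member by Pearson's r. Myh1 was named in addition, because it passed without wild-type mouse 3. Ganc and Erap1, which share exonic bases with Capn3 and Cast, were chosen after their values were seen. Such neighbours of other members are not described. Members and lists were chosen with earlier results of these data known.

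Alternatives were 2 other expression limits (none and log2(50)), 2 other scalings (quantile normalization and median centring), sample weights, an untrended prior variance, blocking on the replicate number, a covariate made from 4 Y-linked genes, correction for GC content and length (14277 genes), an adjusted p under 0.01, and each mouse left out in turn. For the marker lists, wild-type mouse 3 was left out as an alternative chosen after seeing the data. For single genes too, the fit without this mouse was picked for display after seeing the data.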

Additional observations from a re-analysis of the deposited data

Results flagged for a closer look

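Each genotype of each of the 29 tested genes of the calpain system and of its partners gave a group of 5 mice, 58 groups in all. In 5 of these a single mouse was set apart from its group by a wide gap, and about 2.9 such groups arise by chance. The mouse was in 3 cases wild-type mouse 3, which was highest for Capn2 (11.97, next mouse 11.51), Ryr1 (16.89, next mouse 16.35) and Des (17.74, next mouse 16.55). Wild-type mouse 4 was lowest for Capn7 (10.97, next mouse 11.29), and knock-out mouse 3 was lowest for Vim (11.33, next mouse 11.64).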

How the results depend on the processing

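The fall of Capn3 passed under all 19 alternatives, with adjusted p from 1.31e-05 to 0.012 (limma). Of the 8 calpain system genes, 2 passed with all mice, 1 without a limit on expression, with median centring, with GC content and length trends removed or at an adjusted p under 0.01, and 4 with sample weights, which added Capns1 (0.00271) and Capn2 (0.0219). With 1 mouse left out, between 1 and 3 passed. Capns1 also passed with the Y-linked mean as a covariate (0.35, adjusted p = 0.0334). The 18 substrates and partners had 4 calls, 10 with sample weights and 7 with trends removed, and between 3 and 6 with 1 mouse left out. The 3 further calpain genes had 0 calls under every alternative run. Of all genes 1956 passed, 4220 with sample weights and 994 at 0.01, and between 1399 and 2494 with 1 mouse left out. Calls split into 56.2% higher and the rest lower, and into 49% higher with median centring. The causes were not tested.

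Direction turned for differences near 0. Capn1 (-0.014) became 0.053 with quantile normalization, 0.15 with sample weights, 0.13 with the Y-linked covariate and 0.056 with trends removed, and lay between -0.10 and 0.15 over all alternatives (0.035 without knock-out mouse 1, 0.12 without wild-type mouse 3, 0.0019 without wild-type mouse 4). Capn6 became -0.011 with trends removed. Ttn became 0.19 and Ctnnb1 0.043 with quantile normalization. Neb became -0.16 with sample weights, -0.034 with the Y-linked covariate and -0.025 with trends removed. With 1 mouse left out, Dysf reached -0.0028, Ctnnb1 0.011 and Simc1 (-0.061) lay between -0.12 and 2.1e-04.

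Mice of both genotypes share replicate numbers, but nothing in the labels pairs them, and the correlations of deviations from the group means between same-numbered mice lay between -0.22 and 0.067. The replicate block gave 1579 calls in place of 1956, left 2 calls among the 8 genes (Cast with an adjusted p of 0.0461) and ended the call of Jph2 (adjusted p = 0.0526).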
